A study of Mus musculus with 12 samples.

Results

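RNA-seq counts were examined for 10 genes that encode epithelial alarmins and colony-stimulating or inflammatory cytokines, out of 55450 genes counted in type II alveolar epithelial (AT2) cells of the mouse lung. The genes were chosen as a list of symbols, with no threshold on a measured value: Tslp and Il25 (alarmins), Csf1, Csf2, Csf3 and Il34 (colony-stimulating factors and a second ligand of the Csf1 receptor), Il6 and Lif (the IL-6 family), and Tnf and Il23a. All 10 were found by gene ID, and 9 of them passed the filter on low counts. Only Il25 did not pass.

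The series holds 12 libraries in 4 groups of 3. The cells came from AhRfl/fl mice, whose gene for the aryl hydrocarbon receptor (AhR) is floxed, or from Sftpc-Cre;AhRfl/fl mice, which carry the same floxed gene and express Cre from the surfactant protein C (Sftpc) locus, so that recombination is expected wherever that locus is active. Both lines were on the C57BL/6 background and, per the study's methods, were used at 6 to 8 weeks of age. Isolated cells of each genotype were cultured on collagen I and received either PBS or 50 µg/ml of an extract of cockroach (CRE), an indoor allergen, for 24 h. Every group therefore carried the floxed allele, and no group without it was analysed here. The labels number the libraries 1 to 3 in each group but do not say whether these were separate mice, so p-values measure the spread between these libraries only.

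Cytokines of this kind are made by the airway epithelium when it meets allergens, microbial products or injury, and they act on neighbouring immune cells. TSLP and IL-25 belong with IL-33 to the epithelial alarmins that start type 2 responses through dendritic cells and innate lymphoid cells. The colony-stimulating factors drive the growth, survival and activation of macrophages (Csf1), of macrophages and granulocytes (Csf2, GM-CSF) and of neutrophils (Csf3, G-CSF), and in the lung GM-CSF from alveolar epithelium is needed for alveolar macrophages to mature. IL-6, LIF, TNF and IL-23 are inflammatory cytokines with many target cells.

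Total counts lay between 68878065 and 80935797 per library. The targeted gene Ahr was at 42.9, 43.8 and 45.1 CPM (counts scaled to a common library size after TMM normalisation) in AhRfl/fl cells and 49.6, 40.2 and 45.7 in Sftpc-Cre;AhRfl/fl cells with PBS, and at 56.2, 50.5 and 50.1 and at 51.4, 37.7 and 49.5 CPM with CRE. A whole-gene count does not show the deleted part, but Cyp1b1, a classical AhR target gene, was lower in every Sftpc-Cre;AhRfl/fl library (31.7 to 63.9 CPM) than in every AhRfl/fl library (344 to 465 CPM). With Ahrr, Cyp1a1, Nqo1 and Tiparp it made 5 of 6 genes of the AhR list that edgeR called lower averaged over treatments, of which Ahrr and Cyp1a1 did not hold without most single libraries. Nqo1 also rose with CRE (log2 fold change 0.62, SE 0.09, edgeR adjusted p = 0.00880). The AT2 markers were abundant (Sftpc at 3085 CPM or more in every library), as was the club cell gene Scgb1a1 at 3957 CPM or more. The library numbered 1 stood apart in each group: although cells carrying CD16/32, CD45, Ter119 and Sca-1 had been removed, 8 leukocyte markers summed to 452 to 530 CPM in these 4 libraries and to 115 to 214 CPM in the other 8. Fibroblast markers (8 genes) summed to 76.0 to 274 CPM and were highest in libraries 2 of the Sftpc-Cre;AhRfl/fl cells. In these mixed samples, fewer cells of a type and less RNA per cell cannot be told apart.

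Per unit of gene length the members spanned a wide range of levels. On the deposited FPKM scale, and over all 12 libraries, Csf1 had the highest median level (15.4, range 7.78 to 26.9), followed by Lif (10.7, range 6.59 to 15.1), and these ranges overlapped. Both lay above Tnf (median 2.13, highest 5.15) in every library. Tnf, Il34 (1.91), Il6 (1.87), Csf2 (1.50), Csf3 (0.788) and Il23a (0.364) followed in that order of median FPKM level, each overlapping the next. Tslp (0.0667) and Il25 (0) came last, with a highest level of 0.236 and 0.165 FPKM.

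**Figure D1:**
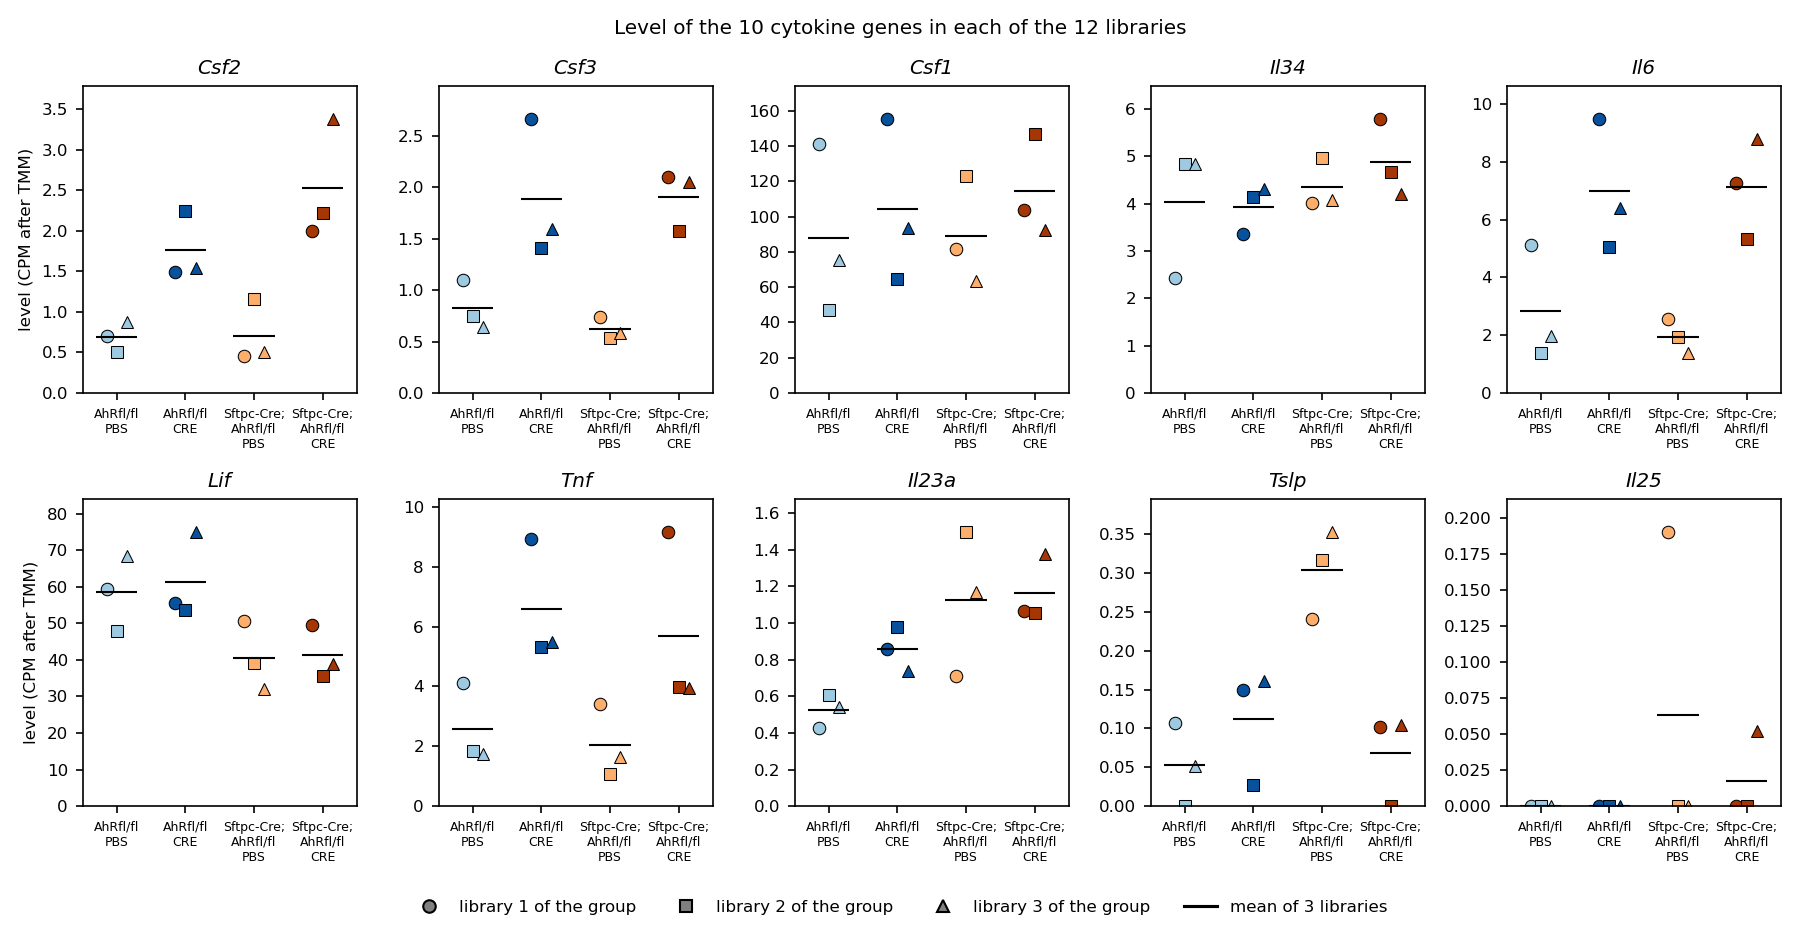
Level of each of the 10 genes in CPM after TMM (y axis, from 0, own scale per gene) in the 4 groups (x axis); circles, squares and triangles are the libraries numbered 1, 2 and 3 and the line is their mean. The CRE libraries of Csf2, Csf3 and Tnf lay above the PBS libraries in both genotypes, Lif was lower in the Sftpc-Cre;AhRfl/fl cells treated with CRE, and Tslp was highest in the PBS-treated Sftpc-Cre;AhRfl/fl cells, at 0.353 CPM or less.

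The question of the first comparisons was which of these cytokine genes changed with the allergen extract. Csf2, Csf3, Il6 and Tnf were about 3-fold higher with CRE, averaged over both genotypes, whereas Lif and Il34 differed little between the treatments. Averaged over genotypes, the quasi-likelihood test of edgeR, with p-values adjusted over 20612 genes by Benjamini and Hochberg's method, called 2 of the 9 tested members, Csf2 and Csf3, both higher, where 1.10% of all tested genes were called. Same-numbered CRE and PBS libraries of one genotype deviated together, so a fit with the replicate number within genotype as a block was also made, which left 4 residual degrees of freedom. That fit called 5 members (Csf1, Csf2, Csf3, Il6 and Tnf), all higher, and 6.59% of all genes. Without the 4 libraries numbered 1, which are described above, both fits called Il6 and Tnf alone among the 9. Of all 20518 genes tested there, 166 were called without the block and 449 with it. The blocked fit then had fewer residual degrees of freedom than with all 12 libraries. In 3 of the 9 members (Csf2, Csf3 and Tnf) every CRE library lay above every PBS library in both genotypes, as in 1.76% of all tested genes.

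Csf2 (ENSMUSG00000018916, GRCm38 chr11:54247271-54249667, minus strand) encodes GM-CSF. In AhRfl/fl cells it was at 0.707, 0.505 and 0.876 CPM with PBS and at 1.49, 2.25 and 1.54 CPM with CRE. The values in Sftpc-Cre;AhRfl/fl cells were 0.457, 1.16 and 0.502 CPM with PBS and 1.99, 2.23 and 3.38 CPM with CRE. Every CRE library was above every PBS library, and the highest PBS value was library 2 of the Sftpc-Cre;AhRfl/fl cells. Behind these levels were 34 to 95 counts with PBS and 115 to 258 with CRE. Averaged over genotypes Csf2 rose 3.01-fold (log2 fold change 1.59, SE 0.29, adjusted p = 0.0270 in edgeR's test and 0.0219 with the replicate block). The call did not hold without library 1, 2 or 3 of the AhRfl/fl PBS group, 2 or 3 of the AhRfl/fl CRE group, 1 or 3 of the Sftpc-Cre;AhRfl/fl PBS group or 3 of the Sftpc-Cre;AhRfl/fl CRE group, with edgeR adjusted p-values of up to 0.0831, while the log2 fold change stayed between 1.46 and 1.87. Without all 4 libraries numbered 1 it was 1.60, with an adjusted p of 0.160 in the edgeR test.

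Csf3 (ENSMUSG00000038067, chr11:98701263-98703629, plus strand) encodes G-CSF, which drives the production and release of neutrophils. It was at 1.09, 0.743 and 0.644 CPM with PBS and 2.66, 1.41 and 1.60 CPM with CRE in AhRfl/fl cells. The Sftpc-Cre;AhRfl/fl cells had 0.736, 0.535 and 0.583 CPM with PBS and 2.09, 1.57 and 2.04 CPM with CRE. The groups did not overlap, and the PBS library 1 was the highest of its group in both genotypes. Each CRE library was 1.89 to 3.51 times as high as the PBS library of its number. Csf3 rose 2.65-fold averaged over genotypes (log2 fold change 1.41, SE 0.23, adjusted p = 0.0145 in edgeR's test), and with the replicate block it passed in AhRfl/fl cells (adjusted p = 0.0335) and in Sftpc-Cre;AhRfl/fl cells (0.0144) taken singly. Without library 2 or 3 of the AhRfl/fl PBS group or library 2 of the Sftpc-Cre;AhRfl/fl PBS group the adjusted p was 0.0507, 0.0507 and 0.0514 in edgeR's averaged comparison, and without the 4 libraries numbered 1 it was 0.0533.

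Csf1 (ENSMUSG00000014599, chr3:107741048-107760469, minus strand) encodes the growth factor of mononuclear phagocytes and was the most abundant member. AhRfl/fl cells had 141, 46.8 and 75.3 CPM with PBS and 155, 64.5 and 93.7 CPM with CRE. Sftpc-Cre;AhRfl/fl cells had 81.4, 123 and 63.3 CPM with PBS and 104, 147 and 92.7 CPM with CRE. The groups overlapped widely, with values from 46.8 to 141 CPM within the AhRfl/fl PBS group alone, yet the CRE library was higher than the PBS library of its number in 6 of 6 pairs, by 1.10 to 1.46 times. The log2 fold change averaged over genotypes was 0.30 (SE 0.30, adjusted p = 0.825 in edgeR's test) without the block and 0.34 (SE 0.06, adjusted p = 0.0153) with it. The blocked call did not hold without the 4 libraries numbered 1 (0.39 on the log2 scale, SE 0.06, adjusted p = 0.0657 in edgeR's test). Across libraries Csf1 was high where fibroblast markers were high: the 4 libraries with 123 CPM or more of Csf1 (libraries 1 of the AhRfl/fl and 2 of the Sftpc-Cre;AhRfl/fl groups) had summed fibroblast levels of 180 to 274 CPM, against 76.0 to 160 CPM in the other 8. All 8 fibroblast markers were detected in each group, and with CRE none was called higher in the blocked fit while 3 of 8 (Col1a1, Col1a2 and Col3a1) fell. Dcn, another of the 8, was higher in the CRE library in 6 of 6 pairs. Its levels were 11.4 to 49.3 CPM with PBS and 12.3 to 58.3 CPM with CRE. The part of fibroblasts in the level of Csf1 was not tested.

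Il34 (ENSMUSG00000031750, chr8:110741829-110805924, minus strand), the other ligand of the Csf1 receptor, is known mainly from keratinocytes and neurons. Its level lay between 2.43 CPM (AhRfl/fl PBS library 1) and 5.79 CPM (Sftpc-Cre;AhRfl/fl CRE library 1), and every pair of groups overlapped. The log2 fold change with CRE averaged over genotypes was 0.07 (SE 0.19, adjusted p = 0.966 in edgeR's test), and its sign turned, to -0.11, without the 4 libraries numbered 1. The antisense genes Gm15894 and Gm15895 overlap Il34 and held 8 and 109 counts in all, against 3926 of Il34, and whether the counting used strand is not stated in the sources used here.

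Il6 (ENSMUSG00000025746, chr5:30013114-30019981, plus strand) encodes interleukin 6, an acute-phase and B and T cell cytokine. AhRfl/fl cells had 5.11, 1.40 and 1.98 CPM with PBS and 9.48, 5.07 and 6.40 CPM with CRE, and the PBS library 1 exceeded the CRE library 2. In Sftpc-Cre;AhRfl/fl cells, where the groups did not overlap, the values were 2.55, 1.92 and 1.38 CPM with PBS and 7.27, 5.31 and 8.80 CPM with CRE. All 6 CRE libraries were above the PBS library of their number, by 1.86 to 6.36 times. The log2 fold change averaged over genotypes was 1.59 (SE 0.33), which just missed the threshold without the block (edgeR adjusted p = 0.0519). With the replicate block it passed, at 1.67 (SE 0.21, adjusted p = 0.00565), and it also passed in AhRfl/fl cells (adjusted p = 0.0468) and in Sftpc-Cre;AhRfl/fl cells (0.0290). Of the 12 unblocked edgeR fits that left out 1 library, 1 called Il6, that without library 1 of the AhRfl/fl PBS group (adjusted p = 0.00670). In the others the edgeR adjusted p was up to 0.141. Without all 4 libraries numbered 1 the unblocked edgeR test also called it (log2 fold change 1.92, adjusted p = 0.0288).

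Tnf (ENSMUSG00000024401, chr17:35199381-35202007, minus strand) encodes tumour necrosis factor, which is made as a membrane protein and shed by ADAM17. It was at 4.11, 1.86 and 1.74 CPM with PBS and 8.92, 5.33 and 5.49 CPM with CRE in AhRfl/fl cells. With PBS it was at 3.40, 1.08 and 1.63 CPM in Sftpc-Cre;AhRfl/fl cells, and with CRE at 9.15, 3.98 and 3.96 CPM. Library 1 was the highest of its group in all 4 groups, and the CRE and PBS groups still did not overlap in either genotype. The log2 fold change averaged over genotypes was 1.42 (SE 0.37, adjusted p = 0.119 in edgeR's test) without the block and 1.48 (SE 0.12, adjusted p = 0.00124) with it, with ratios of 2.17 to 3.67 in the 6 pairs. Within each group the library with the most Tnf was the one with the most leukocyte markers. Without these 4 libraries, all numbered 1, the log2 fold change was 1.57 (edgeR adjusted p = 0.0208), and 1.58 with the block (adjusted p = 0.0240). In the 8 libraries kept, leukocyte markers summed to 115 to 194 CPM with PBS and to 141 to 214 CPM with CRE. Of the 8 leukocyte markers 1 (Lcp1) rose and 1 (Laptm5) fell with CRE in the blocked fit. The part of leukocytes in the level of Tnf was not tested.

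**Figure D2:**
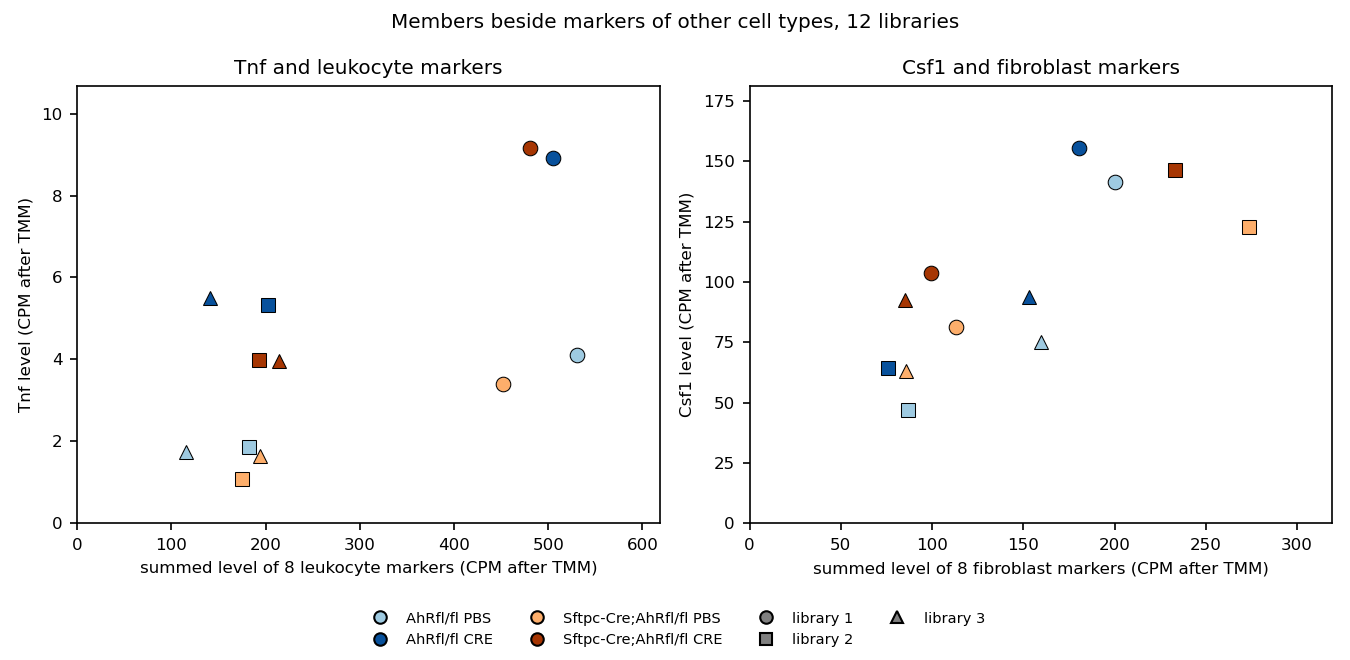
Tnf against the summed level of 8 leukocyte markers (left) and Csf1 against that of 8 fibroblast markers (right), all in CPM after TMM, 1 point per library; colour gives the group and shape the library number. In each genotype the 3 CRE libraries of Tnf lay above the 3 PBS libraries, and the 4 highest Csf1 libraries were the 4 highest in fibroblast markers, from 180 to 274 CPM.

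Macrophage markers moved in both directions in the same libraries. Of 9 tested macrophage markers, 1 (Adgre1, log2 fold change 1.92, SE 0.17) rose and 5 fell with CRE in the blocked edgeR fit, among them Siglecf (log2 fold change -4.18, SE 0.85, adjusted p = 0.0342) and Ear2 (-1.89, SE 0.20, adjusted p = 0.00295), and none passed without the block. Their summed level was 44.9 to 162 CPM with PBS and 40.3 to 156 CPM with CRE, and was highest in the libraries numbered 1. The part of macrophages in the level of Tnf and of Il6 was not tested. Of 10 AT2 markers 1 (Etv5, a transcription factor of AT2 cells) fell with CRE without the block (log2 fold change -0.47, SE 0.08, edgeR adjusted p = 0.0185). The call of Etv5 was lost when any 1 of 5 of the 12 libraries was left out, with edgeR adjusted p-values of up to 0.0618. The block added Sftpc, Sftpd, Abca3, Lamp3 and Lpcat1, with 2 of 10 higher and 4 lower in all. Among markers of lymphocytes and mast cells, endothelium, mesothelium, club and ciliated cells and basal cells none was called without the block, and with it Cd79a, Cpa3, Egfl7, Lrrn4, Upk1b, Upk3b, Scgb1a1 and Krt5 passed. Of 8 neutrophil and 6 tested tuft cell markers none passed for CRE against PBS in either fit. Between the genotypes S100a9 alone of the 8 neutrophil markers passed (lower), only in a fit that paired same-numbered libraries across genotypes.

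Promoter sequences are shown for Il6 and Tnf, which were higher with CRE in 6 of 6 pairs each, and for the abundant members Csf1 and Lif. Csf1 was also higher in 6 of 6 pairs, by smaller ratios of 1.10 to 1.46, while Lif showed almost no difference. RefSeq promoter windows of GRCm38.p6 were at hand for 5 of the 10 members. The fifth, Csf2, is not shown because its RefSeq start lies upstream of the gene start in the annotation used here. Each line gives the 250 bases before the start, 5′ to 3′ on the strand of the gene. Capitals mark matches on either strand to GGGANNNNCC or GGGGNNNNCC, letters of the NF-kB type, where overlapping matches run together.

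Il6 (chr5:30012864-30013113, + strand): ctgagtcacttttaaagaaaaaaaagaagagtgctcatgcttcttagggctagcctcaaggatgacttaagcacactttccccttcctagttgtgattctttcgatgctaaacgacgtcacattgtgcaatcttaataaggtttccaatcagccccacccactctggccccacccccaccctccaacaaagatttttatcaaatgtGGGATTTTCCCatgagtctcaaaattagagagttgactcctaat
Tnf (chr17:35202008-35202257, - strand): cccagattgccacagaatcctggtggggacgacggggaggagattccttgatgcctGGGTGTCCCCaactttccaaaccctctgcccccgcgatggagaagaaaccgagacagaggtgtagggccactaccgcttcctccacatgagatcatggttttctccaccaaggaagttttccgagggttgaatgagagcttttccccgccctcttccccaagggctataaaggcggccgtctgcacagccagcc
Csf1 (chr3:107760470-107760719, - strand): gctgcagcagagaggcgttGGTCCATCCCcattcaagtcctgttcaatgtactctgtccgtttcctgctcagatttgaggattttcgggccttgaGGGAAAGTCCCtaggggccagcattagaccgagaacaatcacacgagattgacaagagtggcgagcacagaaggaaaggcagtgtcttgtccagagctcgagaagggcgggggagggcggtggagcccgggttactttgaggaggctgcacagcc
Lif (chr11:4257318-4257567, + strand): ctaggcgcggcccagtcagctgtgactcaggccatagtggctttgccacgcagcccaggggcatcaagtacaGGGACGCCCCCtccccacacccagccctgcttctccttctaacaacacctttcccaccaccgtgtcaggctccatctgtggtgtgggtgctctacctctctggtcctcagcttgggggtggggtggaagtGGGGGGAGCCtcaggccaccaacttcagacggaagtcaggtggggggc

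These windows of Il6, Tnf, Csf1 and Lif each held a match. That of Csf2 held none, but it did not cover the bases just before the gene start used here, which were not searched. Among all 32851 promoter windows of the same length, 28.4% held at least 1 match on either strand. Counted from the start, where -1 is the base just before it, the match of Il6 lay at -44 to -35 and that of Tnf at -194 to -185. A TGANTCA match, letters of the AP-1 type, which reads alike on both strands, was found at -249 to -243 in Il6 and at -228 to -222 in Lif, and in 6.75% of all windows. The AhR core letters GCGTG were found, among these 5 windows, in that of Lif alone (at -204 to -200, opposite strand) and in 28.2% of all windows. Members with a match of the NF-kB type include one with almost no difference between treatments (Lif). A match of letters is a description of the window, not a site, and its part in the response to CRE was not tested.

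Taken by genotype, no member passed edgeR's test without the block for CRE against PBS, in AhRfl/fl cells (0 of 9, where 0.233% of all genes were called) or in Sftpc-Cre;AhRfl/fl cells (0 of 9, where 0.262% were called). At an unadjusted p below 0.05 in that test there were 5 and 4 members, and 1929 and 1336 of all 20612 genes. With the replicate block the edgeR test called 3 members in AhRfl/fl cells (Csf3, Il6 and Tnf), where 3.63% of all genes were called, and 3 in Sftpc-Cre;AhRfl/fl cells (the same 3), where 2.13% were called. Without the 4 libraries numbered 1 the blocked fit called none of the 9 in either genotype, with 4 and 5 members at an unadjusted p below 0.05. Of all 20518 genes tested there, 3298 and 2354 were below 0.05. By the study's rule, an unadjusted limma-trend p below 0.05 with an absolute log2 fold change above 0.5, 4 members were higher in AhRfl/fl cells (Csf2, Csf3, Il6 and Tnf), where 4.11% of all genes met that rule. In Sftpc-Cre;AhRfl/fl cells the same 4 were higher and Tslp was lower, where 3.38% of all genes met it. The 4 also met it in the averaged comparison, where 4.02% of all genes did. The CRE and PBS groups did not overlap in 4 of 9 members in AhRfl/fl cells (Csf2, Csf3, Il23a and Tnf, all higher), as in 16.5% of all genes, and in 5 of 9 in Sftpc-Cre;AhRfl/fl cells (Csf2, Csf3, Il6 and Tnf higher and Tslp lower), as in 11.8%. Tslp passed the filter on low counts only through the PBS-treated Sftpc-Cre;AhRfl/fl libraries, so its results against that group are not independent of the filter.

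**Figure D3:**
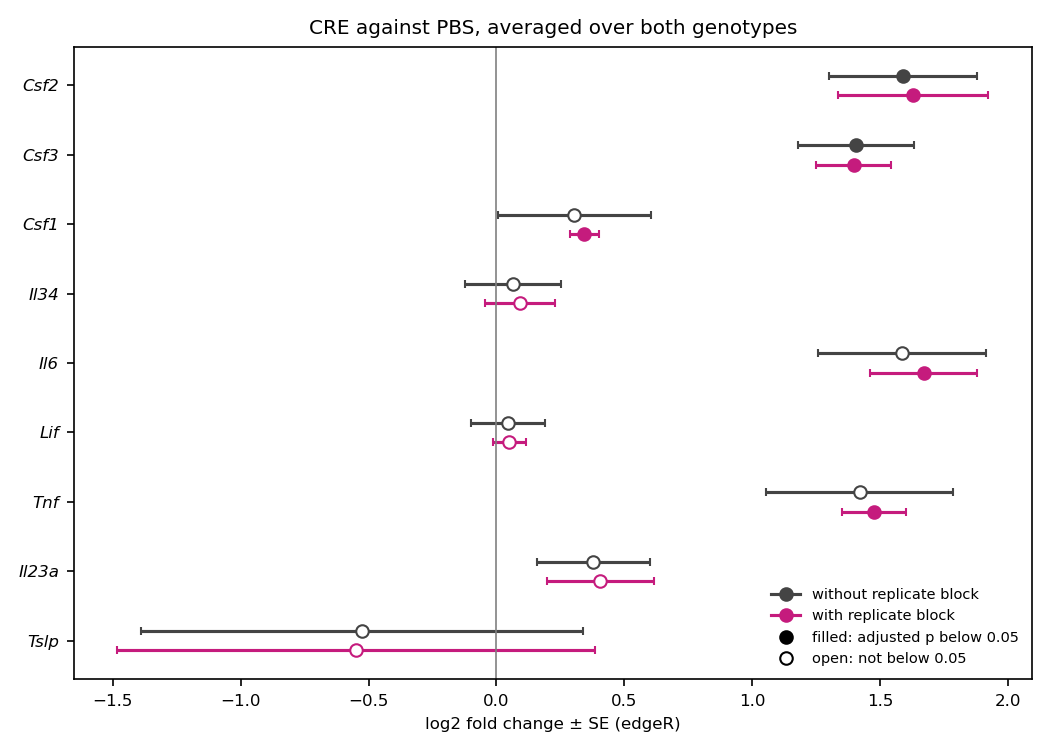
log2 fold change of CRE against PBS averaged over both genotypes (x axis, edgeR estimate with its SE as bars) for the 9 tested members, without (grey) and with (pink) the replicate block; filled points passed an adjusted p of 0.05. Csf2 and Csf3 passed in both fits, Il6, Tnf and Csf1 only with the block, and the bars of Tslp span 0.

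An interaction term tested whether both genotypes responded alike to CRE. No member passed edgeR's test without or with the replicate block, nor did any other of the 20612 genes (0% called in each fit, with 763 and 1874 genes at an unadjusted p below 0.05, and 23 genes and no member called by DESeq2). The differences of the log2 fold change, Sftpc-Cre;AhRfl/fl minus AhRfl/fl, were 0.51 (SE 0.56) for Csf2, 0.43 (SE 0.45) for Csf3, 0.57 (SE 0.64) for Il6 and 0.13 (SE 0.72) for Tnf. With the replicate block they were 0.59 (SE 0.58), 0.45 (SE 0.29), 0.40 (SE 0.41) and 0.0957 (SE 0.24), in the same order. Each difference was under 2 SE in both fits. By the study's rule 2.30% of all genes differed, and among the members Tslp alone.

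Tslp (ENSMUSG00000024379) encodes thymic stromal lymphopoietin, an alarmin that acts on dendritic cells through a receptor of Crlf2 and Il7r. In AhRfl/fl cells it had 8, 0 and 4 counts with PBS and 12, 2 and 12 counts with CRE. The Sftpc-Cre;AhRfl/fl cells had 19, 26 and 26 counts with PBS and 8, 0 and 8 counts with CRE. The PBS-treated Sftpc-Cre;AhRfl/fl cells were above every other library, at 0.241, 0.316 and 0.353 CPM against 0.161 CPM or less, and the 2 libraries with 0 counts allow up to 3 counts, by counting error only. Only in the PBS-treated Sftpc-Cre;AhRfl/fl group did all 3 libraries exceed 10 counts. Tslp passed the filter on low counts only through that group. Its comparisons with that group, and the interaction, are therefore not independent of the filter. With CRE Tslp was higher in 3 of 3 pairs of AhRfl/fl cells and lower in 3 of 3 pairs of Sftpc-Cre;AhRfl/fl cells. The log2 fold changes were 1.06 (SE 1.23, adjusted p = 0.894) and -2.11 (SE 1.22, adjusted p = 0.873), and their difference was -3.17 (SE 1.73) with an unadjusted p of 0.0947 and an adjusted p of 1.00 in edgeR's test. At counts this low the difference between genotypes was not established by that test, and without single libraries its value ran from -4.13 to -2.60.

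Il25 (ENSMUSG00000040770, chr14:54932695-54935837, plus strand) encodes IL-25, an alarmin known mainly from tuft cells. It had 0 counts in 10 of 12 libraries, 15 counts in PBS library 1 and 4 counts in CRE library 3 of the Sftpc-Cre;AhRfl/fl cells. The difference between the genotypes averaged over treatments was 0.0405 CPM (exact two-sided permutation test within treatments, p = 0.5), and that of CRE minus PBS was -0.0230 CPM (exact p = 1). The smallest p of the 400 arrangements is 0.005 only where values do not tie. With 10 of 12 libraries at 0, no arrangement could give a p below 0.05, so these tests could not call a difference. Of the tuft cell markers Chat had 0 counts in every library, and Trpm5 lay between 0.0533 and 0.433 CPM. Pou2f3, Gnat3 and Gng13 stayed at 0.590 CPM or less. Avil was higher, at 2.99 to 6.76 CPM, as was Dclk1, at 36.6 to 59.3 CPM.

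Il33, the third epithelial alarmin and no member of the chosen set, is given here for comparison. It was at 18.4 ± 4.46 CPM with PBS and 45.7 ± 12.6 CPM with CRE in AhRfl/fl cells and at 15.3 ± 4.67 and 35.3 ± 9.57 CPM in Sftpc-Cre;AhRfl/fl cells (mean ± SD, n = 3). Averaged over genotypes it rose (log2 fold change 1.26, SE 0.21, edgeR adjusted p = 0.0197). The call did not hold without library 3 of the AhRfl/fl PBS group, 2 or 3 of the AhRfl/fl CRE group, 2 of the Sftpc-Cre;AhRfl/fl PBS group or 3 of the Sftpc-Cre;AhRfl/fl CRE group, with edgeR adjusted p-values of up to 0.0590 and a log2 fold change of 1.16 or more. Of the 5 other alarmins listed (Il33, Il1a, Hmgb1, S100a8 and S100a9) it was the only one called without the block. Il1a also passed with the block (log2 fold change 2.53, SE 0.18, adjusted p = 0.000557), and it was highest in the libraries numbered 1. The median log2 fold change of the 5 was -0.03, against -0.00 over all genes.

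The second question was whether the genotypes differed in these genes. Lif was lower and Il23a higher in Sftpc-Cre;AhRfl/fl cells, each by less than was needed to pass edgeR's test. No member was called with PBS (0 of 9, where 0.150% of all genes were called), with CRE (0 of 9, where 0.170% were called) or averaged over treatments (0 of 9, where 0.631% were called). At an unadjusted p below 0.05 in edgeR's test these comparisons had 2, 1 and 2 members, and 1725, 1227 and 2046 of all 20612 genes. DESeq2 called 0, 0 and 1 members (Lif), and 243, 174 and 522 genes. The study's rule was met by 3 members with PBS (Tslp and Il23a higher, Lif lower, where 4.10% of all genes met it), by Lif with CRE (3.42% of all genes) and by Il23a and Lif averaged over treatments (4.11% of all genes). Tslp passed the filter on low counts only through the group where it was higher here.

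Lif (ENSMUSG00000034394, chr11:4257557-4272514, plus strand) encodes leukaemia inhibitory factor, which signals through Lifr and Il6st. In AhRfl/fl cells it was at 59.4, 47.8 and 68.4 CPM with PBS and 55.5, 53.5 and 74.9 CPM with CRE. In Sftpc-Cre;AhRfl/fl cells it was at 50.7, 39.1 and 32.1 CPM with PBS and 49.4, 35.6 and 38.9 CPM with CRE. With CRE the genotypes did not overlap, as in 11.0% of all genes, and with PBS library 1 of the Sftpc-Cre;AhRfl/fl cells exceeded library 2 of the AhRfl/fl cells. The log2 fold change between genotypes was -0.53 (SE 0.20, adjusted p = 0.529) with PBS, -0.57 (SE 0.20, adjusted p = 0.756) with CRE and -0.55 (SE 0.14, adjusted p = 0.180) averaged over treatments in edgeR's test. With CRE against PBS it was 0.05 (SE 0.14), and 0.05 (SE 0.07) with the replicate block.

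Il23a (ENSMUSG00000025383, chr10:128296139-128298752, minus strand) encodes the p19 subunit of IL-23, which is secreted only when paired with the p40 subunit (Il12b). It was at 0.427, 0.609 and 0.541 CPM with PBS and 0.859, 0.978 and 0.738 CPM with CRE in AhRfl/fl cells. The Sftpc-Cre;AhRfl/fl cells had 0.710, 1.50 and 1.17 CPM with PBS and 1.07, 1.05 and 1.38 CPM with CRE. The Sftpc-Cre;AhRfl/fl libraries were above the AhRfl/fl libraries with both treatments, which held for no other tested member and for 1.07% of all genes. With PBS alone, where Tslp was the other member without overlap, 14.0% of all genes did not overlap. Averaged over treatments it came to 0.77 on the log2 scale (SE 0.22, adjusted p = 0.236 in edgeR's test), and it was 0.85 without the 4 libraries numbered 1. Its log2 fold change with CRE was 0.71 (SE 0.32) in AhRfl/fl cells and 0.05 (SE 0.31) in Sftpc-Cre;AhRfl/fl cells, and the difference of these values was -0.66 (SE 0.44, adjusted p = 1.00 in edgeR's test). Il12b, the p40 subunit, was between 0 and 1.38 CPM.

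**Figure D4:**
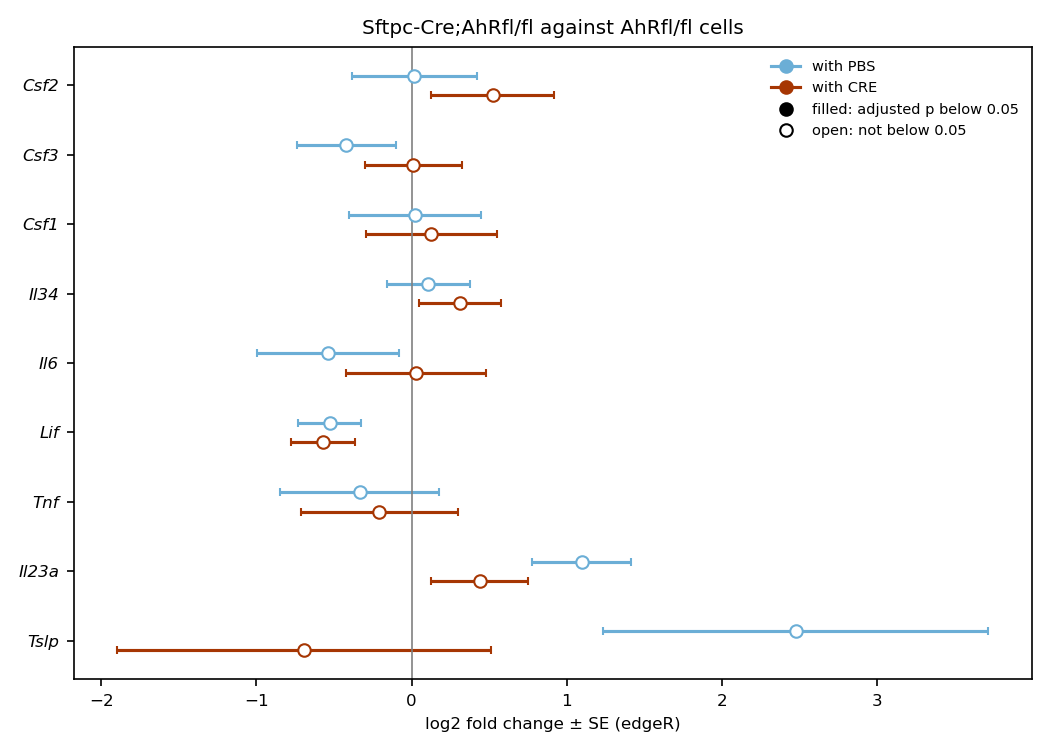
log2 fold change of Sftpc-Cre;AhRfl/fl against AhRfl/fl cells (x axis, edgeR estimate with its SE as bars) with PBS (blue) and with CRE (brown) for the 9 tested members; open points did not pass an adjusted p of 0.05. No point is filled, Lif lies below 0 with both treatments, at -0.53 and -0.57, and the largest value is that of Tslp with PBS, 2.47 with an SE of 1.24.

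Receptor subunits carry the signals of these cytokines onwards. Of 18 receptor subunits, all tested, none was called by edgeR for CRE against PBS averaged over genotypes, and with the replicate block Tnfrsf1b, a TNF receptor, rose (log2 fold change 0.47, SE 0.03, adjusted p = 0.000653) and Sdc1, a proteoglycan that binds IL-34, fell (-0.28, SE 0.03, adjusted p = 0.00435). The median of the 18 was -0.02, against -0.00 over all genes. Il6st, the shared signal chain of IL-6 and LIF, was at 151 to 421 CPM in the 12 libraries, and Csf3r, the G-CSF receptor, at 0.0546 to 3.51 CPM. No receptor subunit was called between the genotypes.

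Among related cytokines and partner subunits, the edgeR fit with the replicate block called Ebi3, a subunit of IL-27, higher with CRE (log2 fold change 1.19, SE 0.20, adjusted p = 0.0170) and Il11, an IL-6 family cytokine, lower (-0.38, SE 0.08, adjusted p = 0.0342). Without the block the adjusted p-values of Ebi3 and Il11 were 0.354 and 0.837.

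Cytokine mRNAs of this kind are short-lived, and 12 genes for factors that bind or degrade them were tested. Zc3h12a, which encodes the endonuclease Regnase-1 that degrades the mRNA of Il6 among others, rose from 7.53 ± 1.73 to 38.7 ± 6.38 CPM in AhRfl/fl cells and from 9.37 ± 3.32 to 36.8 ± 3.06 CPM in Sftpc-Cre;AhRfl/fl cells (mean ± SD, n = 3). Its averaged log2 fold change was 2.17 (SE 0.18, edgeR adjusted p = 0.000190), and the call held without any single library. It was the only one of the 12 called without the block, and Zc3h12c (0.43, SE 0.08) was added with it. The median of the list was 0.05. Among 6 genes of the shedding machinery none was called without the block, and with it Adam17 rose slightly (0.21, SE 0.04, adjusted p = 0.0344) while Timp3, an inhibitor of ADAM17, fell (-0.29, SE 0.04, adjusted p = 0.00545). The median of these 6 was 0.01.

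The genes most like the 2 members called without the block were sought over the 12 libraries, as the smallest root mean square difference of log2 CPM centred on each gene's mean. For Csf2 these were Tnfrsf11b (0.392), Slpi (0.415) and Slc39a4 (0.435), where Csf2 itself had an SD of 0.952 over the libraries. For Csf3, with an SD of 0.785, they were Slc7a11 (0.315), Il1f9 (0.329) and Il6 (0.346). The last is itself a member.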

How the data were processed

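mRNA of cultured AT2 cells was sequenced in 12 libraries of 4 groups (2 genotypes, PBS or CRE, 3 libraries each), grouped by the sample labels. The authors made stranded mRNA libraries, aligned reads to GRCm38 with STAR 2.7.2b, annotated them in Partek with RefSeq and took counts with Salmon. The deposited counts are whole numbers and not normalized, and how they became whole is not given in the sources used here. The deposited FPKM values hold 0.0001 where the count is 0, which was read as 0. All 55450 gene IDs matched GENCODE M21, which gave symbols and positions. Which annotation made the counts is not known.

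Counts were normalized by TMM in edgeR 4.0.16 (R 4.3.3), whose filterByExpr with a minimum count of 10 kept 20612 genes. One fit of 4 group means to all 12 libraries gave 7 comparisons, each with a quasi-likelihood F test of edgeR and a threshold of 0.05 on the Benjamini-Hochberg adjusted p. SE is the absolute log2 fold change over the square root of the F statistic. Il25 failed the filter and was compared by exact permutation within the other factor. The alternatives were DESeq2 1.42.0, size factors in its style, other filters, the study's rule (limma-trend 3.58.1, prior count 2), the replicate block and leaving out libraries. The edgeR fit without the block was tested on simulated counts with known answers, and the permutation on made values. The blocked fits, DESeq2 and limma-trend were not tested in this way. Tables were made with Python 3.11.15.

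Same-numbered CRE and PBS libraries were checked for pairing by the correlation of deviations from group means over 20612 genes. It was 0.514, 0.222 and 0.429 in AhRfl/fl cells and 0.349, 0.319 and 0.209 in Sftpc-Cre;AhRfl/fl cells, every pair over 0.1, so the replicate block within genotype is given beside the CRE results it changes.

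Total counts of 68878065 to 80935797 per library put 3 counts, the limit that a count of 0 allows, at 0.0365 to 0.0446 CPM, which covers counting error only. The members, the gene lists and the tests were chosen with earlier results of these data known. Every member is named, list genes are named where edgeR called them or where they define a cell type, and for each member called for CRE averaged over genotypes the 3 most alike genes are named. Leaving out the 4 libraries numbered 1 was chosen after seeing the data. The median log2 fold change of each list is given beside that of all genes in place of a test of the list. The 12 single-library tables hold the same values as the combined one and were not used. One gene of the list of related cytokines is not reported here.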

Additional observations from a re-analysis of the deposited data

Results flagged for a closer look

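Tslp was picked out because its response to CRE had opposite directions in the genotypes: it was higher with CRE in 3 of 3 same-numbered pairs of AhRfl/fl cells and lower in 3 of 3 pairs of Sftpc-Cre;AhRfl/fl cells. The difference of the log2 fold changes was -3.17 (SE 1.73, adjusted p = 1.00 in edgeR's quasi-likelihood test), and -3.83 (SE 1.77, adjusted p = 0.569) with the replicate block, so neither fit called it. The counts were 0 to 26 per library. Tslp passed the filter on low counts only through the PBS-treated Sftpc-Cre;AhRfl/fl libraries, so this flag gives no independent support for a difference. No cause was tested.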

How the results depend on the processing

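Counts are given in the order CRE against PBS in AhRfl/fl and in Sftpc-Cre;AhRfl/fl cells, genotype with PBS and with CRE, the interaction, CRE averaged over genotypes and genotype averaged over treatments. The members called were 0, 0, 0, 0, 0, 2 and 0, and all genes called 48, 54, 31, 35, 0, 226 and 130. DESeq2 called 1, 3, 0, 0, 0, 4 and 1 members and 409, 254, 243, 174, 23, 740 and 522 genes, and its adjusted p for Tslp was missing and stayed so. The study's rule gave 4, 5, 3, 1, 1, 4 and 2 members and 848, 696, 846, 705, 475, 828 and 847 genes. Size factors in the style of DESeq2, a filter at 1 CPM and no filter kept every count within 1.5 times of the first ones given.

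With the replicate block 3, 3, 0, 0, 0, 5 and 0 members and 748, 439, 15, 22, 0, 1358 and 65 genes were called. For CRE against PBS and the interaction the block paired same-numbered libraries within a genotype. For the genotype comparisons it paired same-numbered libraries across genotypes, within a treatment. The genotypes shared only a number: same-numbered libraries correlated at 0.285, 0.0384 and 0.0598 with PBS and at 0.284, -0.0136 and 0.0346 with CRE. Without all 4 libraries numbered 1, 0, 0, 0, 0, 0, 2 and 0 members and 52, 43, 24, 19, 4, 166 and 64 genes were called, and with the replicate block as well 0, 0, 0, 0, 0, 2 and 0 members (Il6 and Tnf, so that the blocked calls of Csf1, Csf2 and Csf3 and those in single genotypes were lost) and 139, 115, 0, 0, 4, 449 and 9 genes.

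Of the log2 fold changes of the 9 tested members, those that turned sign had not passed the threshold. Under the study's rule these were 0.0252 for Il34 (CRE in AhRfl/fl cells) and -0.0740 for Csf2 (genotype with PBS), and with the replicate block 0.0218 for Il34 (CRE in AhRfl/fl cells) and -0.0916 for Csf2 (genotype with PBS). Without all 4 libraries numbered 1 they were -0.0340 for Il34 (CRE in Sftpc-Cre;AhRfl/fl cells), -0.14 for Il23a (CRE in Sftpc-Cre;AhRfl/fl cells), -0.0942 for Il34 (genotype with PBS), -0.0234 for Csf1 (the interaction), -0.0492 for Tnf (the interaction), -0.11 for Il34 (CRE averaged over genotypes), 0.13 for Il6 (genotype averaged over treatments) and -0.0149 for Il34 (genotype averaged over treatments), and with the replicate block as well -0.0291 for Il34 (CRE in Sftpc-Cre;AhRfl/fl cells), -0.14 for Il23a (CRE in Sftpc-Cre;AhRfl/fl cells), -0.10 for Il34 (genotype with PBS), -0.0238 for Tnf (the interaction), -0.11 for Il34 (CRE averaged over genotypes), 0.12 for Il6 (genotype averaged over treatments) and -0.0194 for Il34 (genotype averaged over treatments).

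Leaving out 1 library at a time, the members called ran from 0 to 2 for CRE averaged over genotypes and stayed at 0 elsewhere, and all genes called from 19 to 51, 23 to 62, 15 to 29, 21 to 35, 0 to 2, 125 to 219, 78 to 110. Signs turned, with these ranges of the log2 fold change, in Csf1 (-0.15 to 0.78), Lif (-0.10 to 0.19), Il34 (-0.30 to 0.12) for CRE in AhRfl/fl cells, in Lif (-0.13 to 0.21), Il23a (-0.19 to 0.31) for CRE in Sftpc-Cre;AhRfl/fl cells. For the genotype comparisons and the interaction they turned in Csf1 (-0.28 to 0.55), Csf2 (-0.54 to 0.25), Il6 (-0.86 to 0.21), Il34 (-0.15 to 0.26), Tnf (-0.92 to 0.18) for genotype with PBS, in Csf1 (-0.12 to 0.53), Csf3 (-0.16 to 0.34), Il6 (-0.16 to 0.31), Tnf (-0.73 to 0.0741) for genotype with CRE, in Csf1 (-0.42 to 0.51), Il6 (-0.18 to 0.89), Lif (-0.19 to 0.15), Tnf (-0.40 to 0.71) for the interaction. In the averaged comparisons they turned in Lif (-0.0387 to 0.14), Il34 (-0.0653 to 0.14) for CRE averaged over genotypes and in Csf1 (-0.0759 to 0.34), Csf2 (-0.00747 to 0.39), Il6 (-0.41 to 0.12) for genotype averaged over treatments. For Il25 the difference of CRE minus PBS ran from -0.0388 to 0.00874 CPM. With 3 libraries a group the SE of the interaction without the block was 0.29 for Lif and 1.73 for Tslp on the log2 scale, which limits what could be detected. The cause of these changes was not tested.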
